A study of Homo sapiens with 9 samples.

Results

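LCN2, SAA1, SAA2, SLPI, S100A8 and S100A9 are 6 genes for secreted proteins of the acute-phase response and of epithelial and neutrophil defence. They were found by gene symbol among the 58037 genes of an expression table for triple-negative breast cancer cell lines in which EZH2 was targeted. The set was chosen by its difference between targeted and control libraries, so the values of these genes against control are given as a description with no test. Of the 6 genes, 5 passed the filter on low values (3 or more of the 9 libraries with an RPKM of 1 or more, where RPKM is reads scaled to gene length and library size), and S100A8 did not.

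RNA of 3 cultured human lines was sequenced, with 1 library per line and condition, so that each group holds 3 libraries and the lines are the replicates. The group labelled GSK343 (n = 3) received a small-molecule inhibitor of EZH2, the methyltransferase of Polycomb repressive complex 2. The group labelled shEZH2 (n = 3) carried a short hairpin RNA against EZH2, and the control group (n = 3) is labelled as untreated in the sample labels and as shControl in the table's headers. The lines were grown in DMEM with fetal bovine serum. Where 3 values of a group are given, they belong to MDA-MB-231, then MDA-MB-436, then MDA-MB-453. The sources used here do not give doses, treatment times or hairpin sequences.

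Lipocalin 2, the product of LCN2, is a secreted carrier protein that withholds iron from bacteria by binding their siderophores, and it is known in breast epithelium and breast tumours as well as in neutrophil granules. The serum amyloid A proteins SAA1 and SAA2 are made by the liver in large amounts in inflammation, under interleukin 6, interleukin 1, NF-kB and C/EBP factors, and epithelial cells can make them too. SLPI is an inhibitor of leukocyte proteases, and S100A8 and S100A9 pair as calprotectin, which binds zinc, manganese and calcium.

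The libraries correspond to 14757043 to 18283426 reads. Genes above 0 numbered 24430 to 26798 under GSK343, 24998 to 27230 under shEZH2 and 22975 to 23900 in the controls. The part of this difference in the calls of low genes was not tested. EZH2 itself was lowest under the GSK343 label. Under the shEZH2 label it was below the control of each line, but near it in MDA-MB-436. Its RPKM was 5.77, 7.53 and 7.99 in the GSK343-labelled libraries and 16.4, 37.4 and 16.2 in those labelled shEZH2. The controls were at 27.4, 38.9 and 42.3. EZH2 fell under the GSK343 label (log2 difference -2.19, limma adjusted p = 0.000424) and did not pass under the shEZH2 label (-0.70, adjusted p = 0.0597). The groups are therefore named by their labels throughout. EZH2 passed under the shEZH2 label without the MDA-MB-436 library of that label (-1.03, limma adjusted p = 0.00721) or without the MDA-MB-436 library labelled GSK343 (-0.70, adjusted p = 0.0387). Over all 12965 tested genes the library labelled MDA-MB-453 lay between the other lines, ends included, for 73.8% of genes under GSK343, 83% under shEZH2 and 47.1% in the controls. For the 6 genes described here that was so in 15 of 18 combinations of gene and condition. The main results below are therefore given without these libraries as well.

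LCN2 (ENSG00000148346.11, GRCh38 chromosome 9, 128149071 to 128153455, plus strand) had the largest difference from control of the 6 genes under both labels. The 300 bases around its RefSeq start, chr9:128149203-128149502 (GRCh38.p14, plus strand, 250 bases before to 50 after the start), are shown because LCN2 carries the main finding and because NF-kB and C/EBP factors are known regulators of this gene. Capitals mark matches to GGGNNNNNCC, a form of the NF-kB site, and to TTNNGNAA, a form of the C/EBP site, both searched on both strands.
LCN2: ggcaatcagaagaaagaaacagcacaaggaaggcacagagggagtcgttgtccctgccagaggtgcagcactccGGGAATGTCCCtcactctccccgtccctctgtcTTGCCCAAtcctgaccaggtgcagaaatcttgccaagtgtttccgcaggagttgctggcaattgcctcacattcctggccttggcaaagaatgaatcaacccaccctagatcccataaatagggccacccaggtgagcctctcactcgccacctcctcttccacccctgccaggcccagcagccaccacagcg
The NF-kB letters matched at -176 to -167 from the start and, on the other strand, at the overlapping -175 to -166. The C/EBP letters matched on the other strand at -143 to -136. Such matches are common, since 58.6% of 34943 promoter windows of this length held the NF-kB letters and 36.9% held the C/EBP letters. The letters TTCNNNGAA, a form of the STAT site, occur in 7.66% of windows and not in this one.

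LCN2 was high in all 6 targeted libraries and low in all 3 controls. Its level was 201, 202 and 254 RPKM in the libraries labelled GSK343. In those labelled shEZH2 it was 259, 283 and 219 RPKM, and in the controls 9.22, 31.3 and 12.97 RPKM. The means were 219 ± 30.6 under GSK343, 253 ± 32.4 under shEZH2 and 17.8 ± 11.8 in the controls (SD, n = 3 each). The lowest targeted library thus stood above the highest control, and neither group overlapped with the controls. All 3 libraries lay above all 3 controls for 6.67% of tested genes under GSK343 and for 7.39% under shEZH2, and nothing is read from these shares, because the gene was selected on this contrast.

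The lines that differed in the controls came close together in the targeted libraries. Among all genes of its library, LCN2 ranked 4955, 1642 and 3953 in the 3 controls and between 63 and 136 in the 6 targeted libraries. Under GSK343 the ratio to the control of the same line was 21.8, 6.45 and 19.6, and under shEZH2 it was 28.1, 9.04 and 16.9. MDA-MB-436 had the smallest ratio under both labels, and its control had the highest LCN2 level of the controls. On the scale of log2(RPKM + 1) the mean difference over lines was 3.72 (SD 0.92) under GSK343 and 3.93 (SD 0.77) under shEZH2. Without the libraries labelled MDA-MB-453 the means over the other 2 lines were 3.48 and 3.90. Without the MDA-MB-436 library labelled shEZH2, in which EZH2 was near its control level, the shEZH2 values were 4.06 for LCN2, 3.19 for SAA1 and 3.36 for SAA2.

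**Figure D1:**
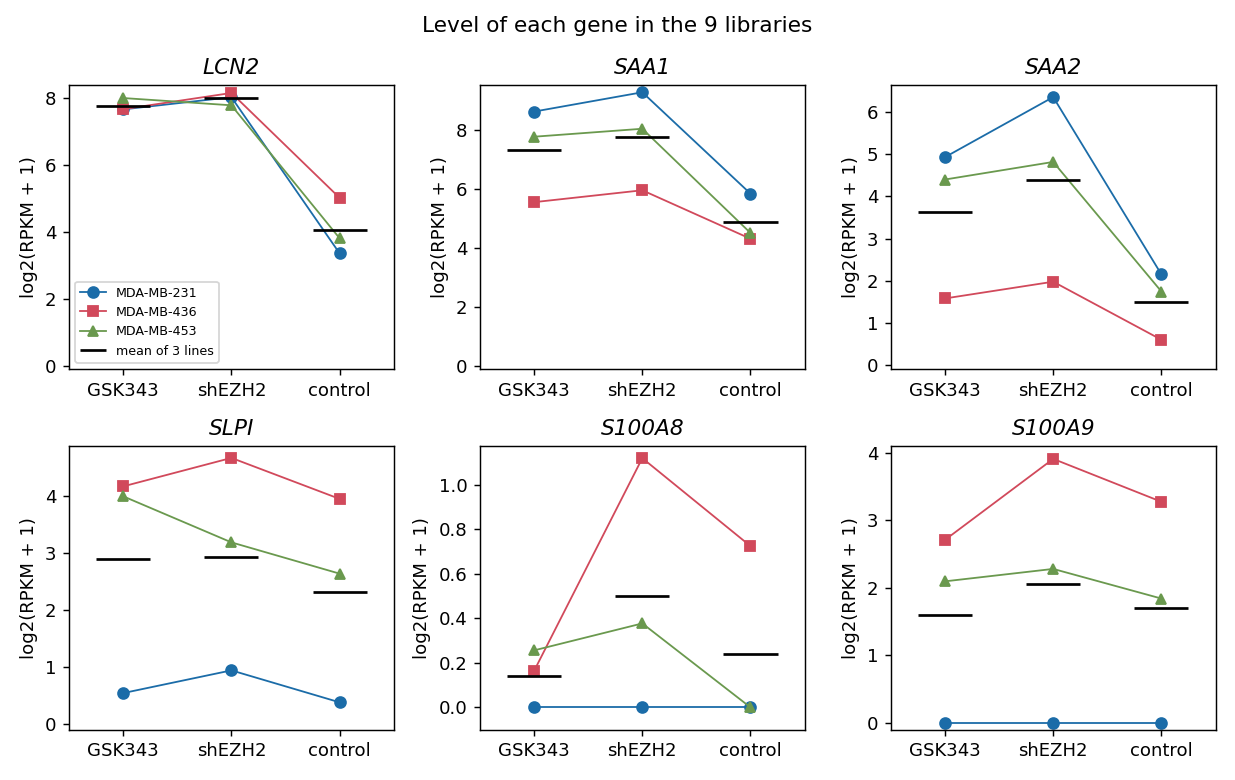
Level of each gene as log2(RPKM + 1) (vertical axis, starting near 0, own range per panel) in the libraries labelled GSK343, shEZH2 and control, with 1 point per library, lines joining the libraries of a cell line, and black bars for the mean of 3 lines. LCN2 converges at 201 to 283 RPKM in the targeted libraries, SAA1 and SAA2 keep the order of the lines, and S100A8 and S100A9 are at 0 in MDA-MB-231.

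SAA1 and SAA2 lie next to each other on chromosome 11, in opposite orientation, and encode near-identical apolipoproteins. SAA1 (ENSG00000173432.10) spans 18266174 to 18269977 on the plus strand, and SAA2 (ENSG00000134339.8) spans 18239223 to 18248643 on the minus strand of GRCh38. Their coding sequences, 369 bases each with the stop codon, differ at 11 bases (97% identity), and the 122 residues differ at 8. The stretch of coding bases 229 to 288 is shown because it holds 8 of the 11 differences, the letters that set the pair apart. Capitals mark the bases that differ, and the transcripts are those of GENCODE 29.
SAA1: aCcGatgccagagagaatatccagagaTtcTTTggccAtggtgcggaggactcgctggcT
SAA2: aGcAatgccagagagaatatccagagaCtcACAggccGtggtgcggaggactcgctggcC
The longest run of coding bases without a difference is 186, and 42.8% of the 50-base and 32.2% of the 100-base windows of the SAA1 coding sequence occur in an SAA2 transcript. The sources used here do not say how reads that match both genes were counted, so the split between SAA1 and SAA2 is uncertain. SAA2 also shares 267 of its 2227 exon bases (12%) with the readthrough gene SAA2-SAA4, which was listed at 0 in every library.

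SAA1 was higher in the targeted library than in the control of the same line in 3 of 3 lines under each label, and the order of the lines was the same in every condition. Its level was 393, 45.9 and 217 RPKM in the libraries labelled GSK343. In those labelled shEZH2 it was 619, 61.0 and 262 RPKM, and in the controls 56.2, 18.8 and 21.7 RPKM. MDA-MB-231 was the highest line and MDA-MB-436 the lowest. The MDA-MB-436 library labelled GSK343 stood below the control of MDA-MB-231, so GSK343 overlapped with the controls, while shEZH2 did not. The ratio to the control of the same line was 6.99, 2.44 and 9.99 under GSK343 and 11.02, 3.24 and 12.1 under shEZH2. The mean log2 difference was 2.43 (SD 1.06) and 2.87 (SD 1.06), and 2.01 and 2.54 without the libraries labelled MDA-MB-453.

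SAA2 had the same order of lines at a lower level. Its level was 29.6, 1.98 and 20.1 RPKM in the libraries labelled GSK343, 81.3, 2.93 and 27.3 RPKM in those labelled shEZH2, and 3.43, 0.508 and 2.34 RPKM in the controls. Both MDA-MB-436 targeted libraries stood below the control of MDA-MB-231, so both groups overlapped with the controls. The ratio within line was 8.62, 3.89 and 8.60 under GSK343 and 23.7, 5.76 and 11.6 under shEZH2. The mean log2 difference was 2.14 (SD 1.01) and 2.89 (SD 1.43), and 1.89 and 2.80 without the libraries labelled MDA-MB-453.

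SAA1 exceeded SAA2 per length in all 9 libraries. The ratio of their RPKM was 13.3, 23.2 and 10.8 under GSK343, 7.62, 20.9 and 9.63 under shEZH2, and 16.4, 37.1 and 9.29 in the controls. In MDA-MB-231 and MDA-MB-436 the ratio was lower in both targeted libraries than in the control, and in the libraries labelled MDA-MB-453 it was higher. The reads that match both genes bear on this ratio, and their part in it was not tested.

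SLPI (ENSG00000124107.5, GRCh38 chromosome 20, 45252239 to 45254564, minus strand), the protease inhibitor of the set, differed mainly between lines. Its level was 0.455, 16.9 and 14.9 RPKM in the libraries labelled GSK343, 0.918, 24.3 and 8.07 RPKM in those labelled shEZH2, and 0.3003, 14.4 and 5.21 RPKM in the controls. The groups overlapped widely, and MDA-MB-231 held only 4, 10 and 3 reads of the gene in the 3 conditions. Within each line the targeted library was above its control, with ratios of 1.51, 1.18 and 2.86 under GSK343 and 3.06, 1.69 and 1.55 under shEZH2. The mean log2 difference was 0.58 (SD 0.67) under GSK343 and 0.61 (SD 0.10) under shEZH2. Without the libraries labelled MDA-MB-453 it was 0.19 under GSK343 and 0.64 under shEZH2, so the GSK343 value rests on the library of that label.

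S100A8 and S100A9, the calprotectin subunits, lie together on chromosome 1 of GRCh38. S100A8 (ENSG00000143546.9) spans 153390032 to 153391188 on the minus strand, and S100A9 (ENSG00000163220.10) spans 153357854 to 153361027 on the plus strand. The 300 bases around the RefSeq start of S100A9, chr1:153357604-153357903 (GRCh38.p14, plus strand), are shown beside those of LCN2 as a gene of the set whose mean level was below control under GSK343, with matches in capitals as before.
S100A9: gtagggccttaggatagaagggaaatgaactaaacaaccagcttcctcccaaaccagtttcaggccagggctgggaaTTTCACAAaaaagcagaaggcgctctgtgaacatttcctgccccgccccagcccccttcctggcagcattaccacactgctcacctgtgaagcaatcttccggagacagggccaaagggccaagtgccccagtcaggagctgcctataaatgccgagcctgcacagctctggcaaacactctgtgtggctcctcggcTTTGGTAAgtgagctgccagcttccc
The C/EBP letters matched on the other strand at -173 to -166 and on the same strand at 25 to 32, and neither the NF-kB nor the STAT letters occur in the window. RefSeq promoter windows were found for 3 of the 6 genes. The remaining gene with windows is S100A8, whose mean level, on few reads, was also below control under GSK343 (0.105 against 0.217 RPKM). All its windows held the C/EBP letters. The NF-kB letters matched at -48 to -39 in its window chr1:153390927-153391226 (minus strand). No relation between letters and levels is read from these windows.

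S100A9 had no reads in any library of MDA-MB-231, where 3 reads would have been 0.284 to 0.352 RPKM. In MDA-MB-436 it was at 5.55 RPKM in the library labelled GSK343, 14.02 in that labelled shEZH2 and 8.67 in the control. In the libraries labelled MDA-MB-453 it was at 3.28, 3.86 and 2.58 RPKM. The MDA-MB-436 library was thus the highest in every condition. Within line, GSK343 was lower than control in MDA-MB-436 (log2 difference -0.56) and higher under the MDA-MB-453 label (0.26), while shEZH2 was higher in both (0.64 and 0.44). Over 3 lines the mean difference was -0.10 (SD 0.42) under GSK343 and 0.36 (SD 0.32) under shEZH2, and without the libraries labelled MDA-MB-453 it was -0.28 and 0.32.

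S100A8 was at the limit of detection. It had 0, 2 and 3 reads under GSK343, 0, 21 and 5 reads under shEZH2, and 0, 11 and 0 reads in the controls. Its highest level, in the MDA-MB-436 library labelled shEZH2, was 1.17 RPKM, and S100A9 stood 11.96-fold above it per length in that library. Each of these counts comes from a single library per line and condition, and no direction between conditions is read from them.

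Counted together, 4 of the 6 genes (LCN2, SAA1, SAA2 and SLPI) were above the control of their own line in 3 of 3 lines under GSK343 and likewise under shEZH2. Among all tested genes that was so for 26.3% under GSK343 and 27.5% under shEZH2. Both comparisons use the same control libraries, and the genes were chosen by this contrast, so nothing is read from the counts. These are bulk libraries, in which a larger share of cells making a transcript and more of it per cell cannot be told apart.

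**Figure D2:**
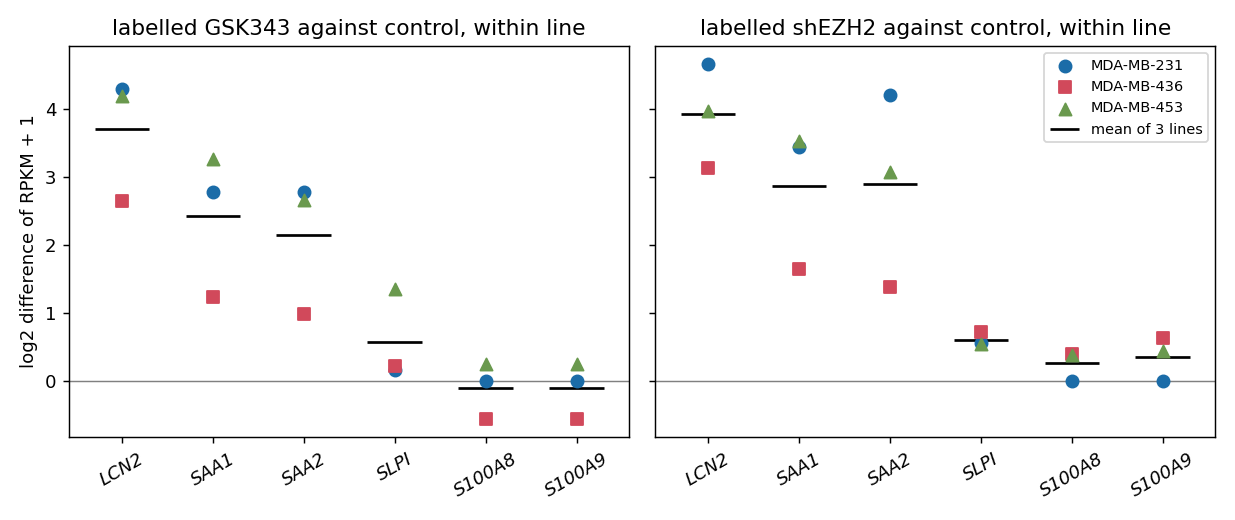
Difference of log2(RPKM + 1) from the control of the same line (vertical axis) for the 6 genes, under the GSK343 label (left) and the shEZH2 label (right), with 1 point per line and black bars for the mean. LCN2 lies between 2.65 and 4.67 in all 6 cases, MDA-MB-436 has the smallest difference for LCN2, SAA1 and SAA2, and S100A8 and S100A9 lie near 0.

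Whether the libraries labelled GSK343 and shEZH2 differed from each other is a comparison that the choice of the genes did not use. None of the 5 genes tested passed the threshold (limma, adjusted p under 0.05), as was so for 0% of the 12965 genes tested, although 295 had an unadjusted p under 0.05, and the alternative settings called 0 to 3. The log2 difference, GSK343 minus shEZH2, was -0.21 ± 0.61 for LCN2, -0.44 ± 0.70 for SAA1 and -0.75 ± 0.83 for SAA2 (95% confidence limits of the fit). It was -0.03 ± 0.51 for SLPI and -0.46 ± 0.46 for S100A9, with an adjusted p of 0.9998 in limma for each of the 5. The intervals allow a LCN2 level under GSK343 from 0.82 lower to 0.40 higher on the log2 scale, so an equal response is not shown. SAA1 and SAA2 were lower under GSK343 in 3 of 3 lines, with SAA2 in MDA-MB-231 farthest apart at 29.6 against 81.3 RPKM. LCN2 was lower under GSK343 in 2 of 3 lines. Without the libraries labelled MDA-MB-453 the differences were -0.43 for LCN2, -0.53 for SAA1, -0.91 for SAA2, -0.45 for SLPI and -0.60 for S100A9, each with an adjusted p of 0.999 in limma.

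Levels between lines differed in opposite directions for different genes. In these tests the conditions of a line serve as its replicates, so p-values measure only how far a line difference varies between conditions. MDA-MB-436 was above MDA-MB-231 in SLPI (log2 difference 3.64) and in S100A9 (3.30). Both genes passed the filter on low values only through libraries of MDA-MB-436 and the MDA-MB-453 label. The filter thus fixed their direction against MDA-MB-231, and no test is given for them there. MDA-MB-436 was lower in SAA1 (-2.64 ± 0.70, limma adjusted p = 2.21e-05) and SAA2 (-3.10 ± 0.83, adjusted p = 2.30e-05). For LCN2 the difference was 0.60 ± 0.61 and did not pass (adjusted p = 0.0785 in limma). It passed without the MDA-MB-436 library labelled GSK343 (0.93) or the MDA-MB-231 library labelled shEZH2 (0.82). The calls of SAA1 and SAA2 stand beside 63.4% of all tested genes called for this pair of lines. SAA1 and SAA2 passed without the libraries labelled MDA-MB-453 too, with adjusted p of 0.0003545 and 0.000838 in limma. For S100A9, against the 3-read limit in MDA-MB-231, the level in MDA-MB-436 was at least 15.7-fold higher under GSK343, 49.3-fold under shEZH2 and 28.0-fold in the controls.

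The libraries labelled MDA-MB-453 took a middle place. Against MDA-MB-231, SLPI (log2 difference 2.65) and S100A9 (2.07) were higher, in the direction fixed by the filter, and no test is given for them. SAA1 passed (-1.14 ± 0.70, limma adjusted p = 0.0199), beside 31.3% of all tested genes called. The SAA1 call was lost without the MDA-MB-231 library labelled GSK343 (-1.10), without its shEZH2-labelled library (-0.95) or without the control labelled MDA-MB-453 (-0.77). SAA2 did not pass (-0.83 ± 0.83, adjusted p = 0.117 in limma). It passed without the MDA-MB-436 library labelled shEZH2 (-0.83), without the control of that line (-0.83), without all 3 of its libraries (-0.83) and without the control of MDA-MB-231 (-1.32). LCN2 did not pass either (0.18 ± 0.61, adjusted p = 0.644 in limma).

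Against MDA-MB-436, 4 of 5 genes passed, beside 34.7% of all tested genes. SAA1 (1.5 ± 0.70, limma adjusted p = 0.00445) and SAA2 (2.27 ± 0.83, adjusted p = 0.000987) were higher under the MDA-MB-453 label. SLPI (-0.99 ± 0.51, limma adjusted p = 0.00723) and S100A9 (-1.23 ± 0.46, adjusted p = 0.00110) were lower. These differences average over the conditions. For SAA1 the controls were close, at 21.74 RPKM under the MDA-MB-453 label and 18.85 in MDA-MB-436. The SAA1 levels lay farther apart under GSK343 (217 against 45.9 RPKM) and shEZH2 (262 against 61.0). The SLPI call was lost without the control labelled MDA-MB-453 (-0.81). LCN2 did not pass (-0.41 ± 0.61, adjusted p = 0.267 in limma), but passed without the MDA-MB-436 library labelled GSK343 (-0.75). In the order of levels, then, MDA-MB-231 led for SAA1 and SAA2 and MDA-MB-436 for SLPI and S100A9, with the MDA-MB-453 label between. For SAA2 that label and MDA-MB-231 did not differ beyond the error of the fit, and for LCN2 no pair of lines did.

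**Figure D3:**
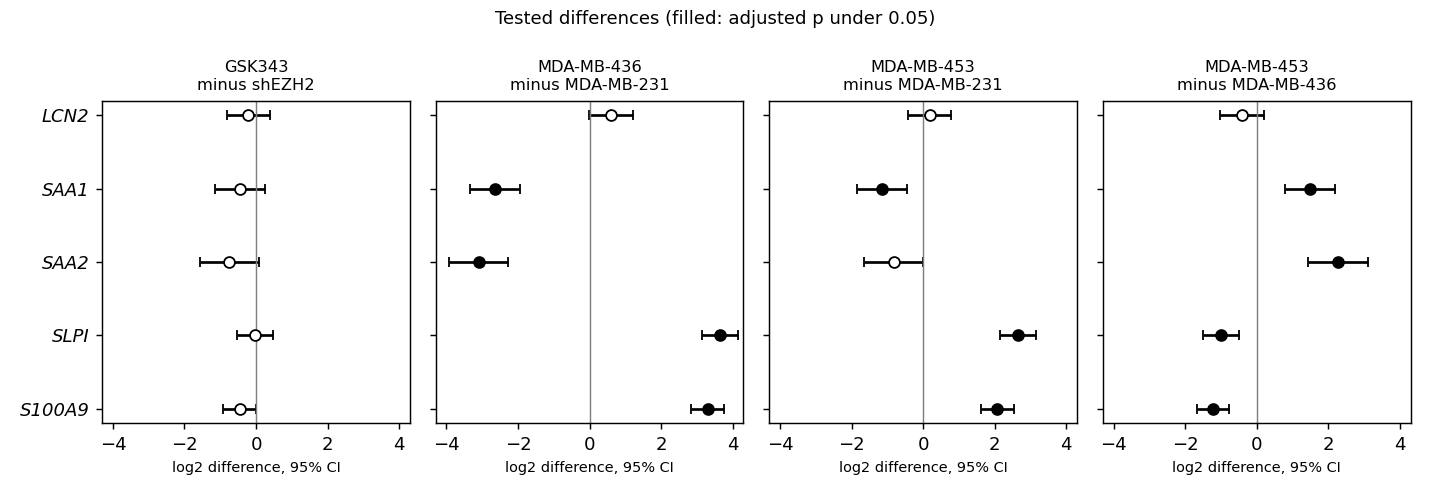
Differences of log2(RPKM + 1) with 95% confidence intervals (horizontal axis) for the 5 genes that passed the filter, for GSK343 minus shEZH2 and for the 3 pairs of lines, with filled points where the limma adjusted p was under 0.05. The GSK343 minus shEZH2 points are all open, and the SAA genes and the pair SLPI and S100A9 lie on opposite sides of 0 between lines. For SLPI and S100A9 against MDA-MB-231 the filter fixed the direction, so nothing is read from the fill of those points.

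Most defining markers of neutrophils and hepatocytes, cells that normally make these proteins, were low. Of the neutrophil and other blood cell markers, ELANE was at 0 in all 9 libraries, MPO and CEACAM8 were at 0 in 8, and PTPRC reached at most 0.203 RPKM. The summed RPKM of the 15 markers was 51.9, 2.68 and 31.3 under GSK343, 72.4, 2.55 and 34.7 under shEZH2, and 32.6, 0.943 and 15.8 in the controls. It was higher in each targeted library than in its control, and its part in the levels of LCN2 and the SAA genes was not tested. LAPTM5, a lysosomal membrane protein, made up most of the sum in MDA-MB-231 and under the MDA-MB-453 label, and it was at most 0.309 RPKM in MDA-MB-436. There ITGAM, an integrin subunit of neutrophils and macrophages, made up most of the sum, at 2.27 RPKM under GSK343 and 2.07 under shEZH2 against 0.642 in the control. FPR1, a formyl peptide receptor of neutrophils, was at 2.77 RPKM under GSK343 and 5.25 under shEZH2 against 1.98 in the control of MDA-MB-231, and at 1.94 and 2.23 against 0.622 under the MDA-MB-453 label. All 10 hepatocyte markers were below 1 RPKM in every library, with sums of 0.316 to 0.326 under GSK343, 0.284 to 0.384 under shEZH2 and 0.0487 to 0.245 in the controls. The 6 breast epithelial markers summed to 77.1 to 332 RPKM under GSK343, 75.9 to 388 under shEZH2 and 144 to 397 in the controls, and the 6 mesenchymal-type markers to 408 to 726, 419 to 730 and 579 to 926. Keratins made up most of the epithelial sums. CDH1 was at most 0.443 RPKM and EPCAM at most 3.39 RPKM in any library, and KRT19 was at most 0.383 RPKM in MDA-MB-436.

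Other acute-phase genes were tested as a list chosen, like the lists that follow, with earlier results of these data known. Of 23 plasma proteins, 6 passed the filter on low values, of which 2, SAA4 and LRG1, did so through targeted libraries only and are left out of the counts. Of the other 4, 2 rose and 0 fell under GSK343, and 3 rose and 0 fell under shEZH2. Among all tested genes 6.25% rose and 1.6% fell under GSK343, and 8.35% rose and 2.28% fell under shEZH2. The median log2 difference of the 4 was 1.05 and 1.12, against 0.06 and 0.05 over all genes. Under GSK343 there was 1 call left without the MDA-MB-231 or MDA-MB-453 library labelled GSK343 or the control labelled MDA-MB-453, and under shEZH2 there was 1 without that control.

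VNN1, a pantetheinase, rose to 11.4 ± 1.66 RPKM under GSK343 and 10.0 ± 1.30 under shEZH2, against 3.03 ± 1.40 in the controls (SD, n = 3; log2 difference 1.69 ± 0.52, limma adjusted p = 0.00277, and 1.52 ± 0.52, adjusted p = 0.00442). C3, the central complement protein, was at 72.5, 62.1 and 107 RPKM under GSK343, 131, 73.6 and 90.0 under shEZH2, and 7.95, 37.6 and 22.2 in the controls of the 3 lines. It rose by 1.99 ± 0.89 (adjusted p = 0.0151) and 2.27 ± 0.89 (adjusted p = 0.00822) on the log2 scale in limma, with the smallest ratio in MDA-MB-436, as for LCN2. The C3 call under GSK343 was lost without the MDA-MB-231 (1.86) or MDA-MB-453 (1.80) library labelled GSK343, and both C3 calls were lost without the control labelled MDA-MB-453 (2.0 and 2.29).

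SAA4, the constitutive serum amyloid gene of the same cluster, was at 1.31, 0.332 and 1.34 RPKM under GSK343, 1.73, 0.232 and 0.414 under shEZH2, and 0.0821, 0.0820 and 0.171 in the controls. LRG1, a plasma glycoprotein, was at 4.45, 0.108 and 1.56 RPKM under shEZH2 and 0.1714, 0 and 0.0792 in the controls. The filter fixed the direction of both genes, so no test is given for them. CD14, the co-receptor for bacterial lipopolysaccharide, rose under shEZH2 (0.73 ± 0.42, limma adjusted p = 0.0332), a call lost without the MDA-MB-231 (0.54) or MDA-MB-453 (0.72) library labelled shEZH2 and without their controls (0.72 and 0.55).

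The signals and transcription factors known to act upstream of these genes rose in part. Of 31 such genes 26 were tested; 6 rose and 0 fell under GSK343, and 8 rose and 0 fell under shEZH2, which is 23.1% and 30.8% that rose, beside 6.25% and 8.35% of all tested genes. The median log2 difference was 0.32 and 0.43. IL6, the cytokine that drives SAA synthesis in liver, was at 59.3, 150 and 120 RPKM under GSK343, 48.4, 157 and 101 under shEZH2, and 13.3, 44.1 and 28.6 in the controls. It rose by 1.95 ± 0.31 (limma adjusted p = 7.22e-05) and 1.79 ± 0.31 (adjusted p = 9.19e-05), and in each line the control was below both targeted libraries. NFKBIZ, an NF-kB co-regulator needed for LCN2 induction in several cell types, rose by 0.95 ± 0.31 (adjusted p = 0.00318) and 0.92 ± 0.31 (adjusted p = 0.00379 in limma). ZC3H12A, an RNase that degrades inflammatory transcripts, rose by 1.14 ± 0.49 (adjusted p = 0.0124) and 1.19 ± 0.49 (adjusted p = 0.00927 in limma). The ZC3H12A calls were lost without the control labelled MDA-MB-453 (0.98 under GSK343, 1.04 under shEZH2), without the MDA-MB-231 (1.05) or MDA-MB-453 (0.98) library labelled GSK343, and without the MDA-MB-231 library labelled shEZH2 (1.07).

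Genes of the transcription factors themselves differed in outcome, and those of the NF-kB subunits and STAT3 did not pass. Of the NF-kB subunits, RELA was at 0.28 ± 0.33 and 0.21 ± 0.33 on the log2 scale under GSK343 and shEZH2, NFKB1 at -0.20 ± 0.44 and -0.17 ± 0.44, and REL at 0.35 ± 0.47 and 0.45 ± 0.47. NFKB2 had 0.39 ± 0.33 and 0.50 ± 0.33 (limma adjusted p = 0.134 and 0.0559), and passed under shEZH2 without the control of MDA-MB-436 (0.63). RELB had 0.51 ± 0.47 and 0.49 ± 0.47 (limma adjusted p = 0.155 and 0.154), and passed under both labels without the control of MDA-MB-231 (0.80 and 0.78). STAT3 was at 0.07 ± 0.29 and 0.16 ± 0.29. These factors are regulated largely at the protein level, which transcript levels do not show. CEBPB, a C/EBP factor of the acute-phase response, rose by 0.82 ± 0.39 (limma adjusted p = 0.0196) and 0.83 ± 0.39 (adjusted p = 0.0160). The other tested C/EBP genes did not pass. CEBPD had 0.32 ± 0.42 and 0.59 ± 0.42 (limma adjusted p = 0.323 and 0.0719), and CEBPA 0.285 ± 0.333 and 0.198 ± 0.333 (adjusted p = 0.261 and 0.424). CEBPD passed under shEZH2 without the MDA-MB-436 library labelled shEZH2 (0.78) or the control of that line (0.86). IL1B, which encodes interleukin 1 beta, rose by 1.86 ± 0.91 (adjusted p = 0.0222) and 1.81 ± 0.91 (adjusted p = 0.0198 in limma). Both IL1B calls were lost without the MDA-MB-231 targeted library (1.34 and 1.5) or the control labelled MDA-MB-453 (2.21 and 2.16). Both CEBPB calls were lost without the targeted libraries or the controls of either of these lines (0.67 to 0.81). The genes of this paragraph were named after their values were seen. Without the control labelled MDA-MB-453 the list had 3 calls under GSK343 and 2 under shEZH2. Leaving out the MDA-MB-231 or MDA-MB-453 library labelled GSK343 left 2 and 3 calls under GSK343, and leaving out those labelled shEZH2 left 3 and 4 under shEZH2.

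Of the other members of the same protein families, single genes were called, beside 6.25% of all tested genes that rose under GSK343 and 8.35% under shEZH2. Of 9 tested S100 genes (17 listed) 0 were called under GSK343 and 1 (11.1%) rose under shEZH2, S100A3, at 47.1, 20.1 and 25.5 RPKM under shEZH2 against 19.1, 15.97 and 13.1 in the controls (0.83 ± 0.44, limma adjusted p = 0.0242). Under GSK343 the value for S100A3 was 0.64 ± 0.44 (adjusted p = 0.0742 in limma), which passed without the MDA-MB-436 library labelled GSK343 (0.82) or the control of that line (0.92). S100A4 had -0.36 ± 0.33 there (adjusted p = 0.159 in limma). The S100A3 call was lost without the MDA-MB-231 library labelled shEZH2 (0.66), its control (0.68) or the control labelled MDA-MB-453 (0.69).

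Of 3 tested lipocalin genes (15 listed) 0 were called under GSK343 and 1 rose under shEZH2, C8G, a subunit of complement C8 (0.68 ± 0.39, limma adjusted p = 0.0349). That call was lost without any 1 of 5 libraries, the MDA-MB-231 (0.61) and MDA-MB-453 (0.54) ones labelled shEZH2 and the 3 controls (0.73, 0.65 and 0.65). C8G had 0.64 ± 0.39 under GSK343 (adjusted p = 0.0516 in limma) and passed there without the MDA-MB-436 or MDA-MB-453 library labelled shEZH2 (0.64 in both). Only 1 of the 3 controls had C8G at 1 RPKM or more. RBP4, the retinol carrier, had 0.45 ± 0.38 under GSK343 and passed without the control of MDA-MB-231 (0.65). The 2 tested genes of the WAP family (17 listed), to which SLPI belongs, were PI3 and ANOS1. PI3, which encodes the elastase inhibitor elafin, was also the only tested gene of 20 secreted epithelial defence proteins. It was at 2.11, 342 and 255 RPKM under GSK343, 1.90, 291 and 145 under shEZH2, and 0.517, 209 and 82.8 in the controls. PI3 was lowest in MDA-MB-231 and highest in MDA-MB-436, as SLPI was. It rose by 1.12 ± 0.39 (limma adjusted p = 0.00437) and 0.74 ± 0.39 (adjusted p = 0.0237) on the log2 scale. Its shEZH2 call was lost without the MDA-MB-231 (0.62) or MDA-MB-436 (0.76) library labelled shEZH2 and without the MDA-MB-231 (0.71) or MDA-MB-453 (0.60) control. ANOS1 did not pass, at -0.26 ± 0.35 and -0.15 ± 0.35.

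Among receptors and binding partners of the 6 proteins (8 tested of 18), 1 rose under GSK343 (12.5%) and 2 under shEZH2 (25%), beside the 6.25% and 8.35% of all tested genes. GRN, which encodes progranulin, a growth factor precursor that SLPI protects from cleavage by elastase, was at 212, 154 and 192 RPKM under GSK343, 255, 182 and 196 under shEZH2, and 126, 70.5 and 56.2 in the controls. It rose by 1.20 ± 0.41 (limma adjusted p = 0.00389) and 1.38 ± 0.41 (adjusted p = 0.00196). CD14, described above, was the other gene called under shEZH2. TLR4, the receptor through which calprotectin signals, had 0.52 ± 0.41 (adjusted p = 0.107) and 0.55 ± 0.41 (adjusted p = 0.0813 in limma) and did not pass, but passed under both labels without the control of MDA-MB-436 (0.76 and 0.79), which gave 2 and 3 calls in the list. PLSCR1, at 0.34 ± 0.33 and 0.32 ± 0.33, did not pass.

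Iron handling is the process in which lipocalin 2 is known to act. Of 14 tested genes (18 listed) 2 rose and 0 fell under GSK343, and 2 rose and 1 fell under shEZH2. The 2 genes are 14.3% of the list, beside 6.25% and 8.35% of all tested genes that rose, and 2.28% fell under shEZH2. FTH1, the ferritin heavy chain that stores iron, was at 337, 2631 and 1547 RPKM under GSK343, 291, 2350 and 1170 under shEZH2, and 199.9, 1258 and 362 in the controls. It rose by 1.30 ± 0.51 (limma adjusted p = 0.00842) and 1.04 ± 0.51 (adjusted p = 0.0187). FTH1 has many processed copies in the genome, so its counts are uncertain. HMOX1, which frees iron from haem, rose under GSK343 (0.76 ± 0.43, limma adjusted p = 0.0391) and had 0.56 ± 0.43 under shEZH2 (adjusted p = 0.0915). SLC25A37, a mitochondrial iron importer, rose under shEZH2 (0.61 ± 0.32, adjusted p = 0.0221 in limma) and had 0.45 ± 0.32 under GSK343. TFRC, the transferrin receptor for iron uptake, fell to 38.2, 44.0 and 47.3 RPKM under shEZH2, against 65.7, 51.8 and 102 in the controls (-0.70 ± 0.40, adjusted p = 0.0325 in limma), and had -0.60 ± 0.40 under GSK343 (adjusted p = 0.0640).

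The iron calls changed when single libraries were left out, in fits with fewer samples. FTH1 was lost under GSK343 without the MDA-MB-453 library labelled GSK343 (1.07), and under shEZH2 without the MDA-MB-231 (1.16) or MDA-MB-453 (0.92) library labelled shEZH2 or the control labelled MDA-MB-453 (0.68). HMOX1 was lost without any 1 GSK343-labelled library (0.81, 0.78 and 0.68) and without the controls of MDA-MB-436 (0.72) or MDA-MB-453 (0.51). TFRC and SLC25A37 were lost without the shEZH2 library of MDA-MB-231 (-0.62 and 0.47) or of the MDA-MB-453 label (-0.63 and 0.64) and without the controls of these lines (-0.72 and 0.56, -0.47 and 0.63). Calls were also gained: HMOX1 passed under shEZH2 without the control of MDA-MB-231 (0.84), and TFRC passed under GSK343 without the control of MDA-MB-436 (-0.81).

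Without all 3 libraries labelled MDA-MB-453 few of these calls were left. The calls counted here are those of the up to 3 genes with the smallest p per list and comparison, other than SAA4 and LRG1. IL1B and CEBPB are not among these genes. Of these calls, 7 of 9 were lost under GSK343 and 12 of 13 under shEZH2. With all list genes counted, 7 of the 8 lists had 0 calls under each label, and the upstream list had 2 under GSK343 and 1 under shEZH2. IL6 passed in both cases (1.91, limma adjusted p = 0.0130, and 1.79, adjusted p = 0.0167), and NFKBIZ passed under GSK343 (1.10, adjusted p = 0.0469) but not under shEZH2 (0.99, adjusted p = 0.0617 in limma). VNN1 and GRN lost the call, at 1.88 (adjusted p = 0.0740 in limma) and 1.60 (adjusted p = 0.103) for VNN1 and 0.93 (adjusted p = 0.0787) and 1.18 (adjusted p = 0.0617) for GRN. That fit has fewer samples.

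**Figure D4:**
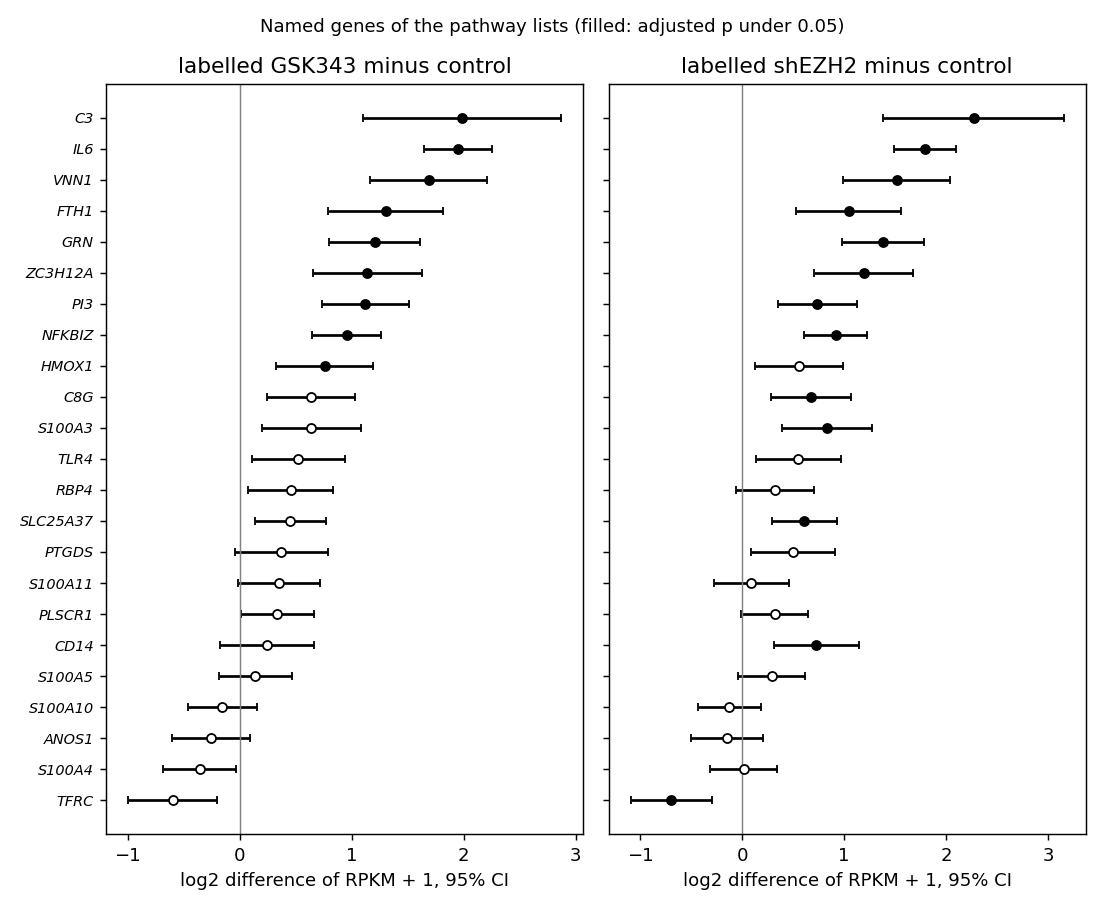
Difference of log2(RPKM + 1) from control with 95% confidence intervals (horizontal axis) for 23 genes of the 8 pathway lists, under the GSK343 label (left) and the shEZH2 label (right), ordered by the GSK343 value, with filled points where the limma adjusted p was under 0.05. The 23 are the genes with the smallest p per list and comparison, other than SAA4 and LRG1, and IL1B and CEBPB are not among them. Of the genes shown, C3, IL6 and VNN1 have the largest values under both labels, and TFRC is the only filled point below 0.

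The genes that neighbour the 6 on their chromosomes were read for the same contrasts. Of 17 protein-coding neighbours 6 were tested and 1 was called under both labels, beside 6.25% and 8.35% of all tested genes that rose. C9orf16, which lies 6805 bases from LCN2 on the side of higher coordinates, rose by 1.16 ± 0.62 (limma adjusted p = 0.0307) under GSK343 and 1.32 ± 0.62 (adjusted p = 0.0160) under shEZH2. The GSK343 call of C9orf16 was lost without the GSK343-labelled libraries or the controls of MDA-MB-231 (1.15 and 1.12) or MDA-MB-453 (0.89 and 0.73). Its shEZH2 call was lost without the MDA-MB-231 library labelled shEZH2 (1.28), its control (1.27) or the control labelled MDA-MB-453 (0.89). Without all 3 libraries of that label C9orf16 had 0.70 (adjusted p = 0.270) and 0.92 (adjusted p = 0.148 in limma). CIZ1, on the far side of C9orf16, had 0.10 ± 0.34 and 0.02 ± 0.34, and PTGES2, the nearest tested gene on the other side of LCN2, had 0.18 ± 0.43 and 0.12 ± 0.43. SLC25A25, farther out on that side, had 0.52 ± 0.37 (limma adjusted p = 0.0775) and 0.53 ± 0.37 (adjusted p = 0.0630), and passed under both labels without the control of MDA-MB-231 (0.73 and 0.74). Next to the serum amyloid cluster MRGPRX3 and MRGPRX4 were not tested, HPS5 had 0.25 ± 0.34 and 0.21 ± 0.34, and GTF2H1 had 0.10 ± 0.32 and -0.04 ± 0.32. Every neighbour of SLPI and of the calprotectin pair was below 0.5 RPKM in all 9 libraries and was not tested.

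**Figure D5:**
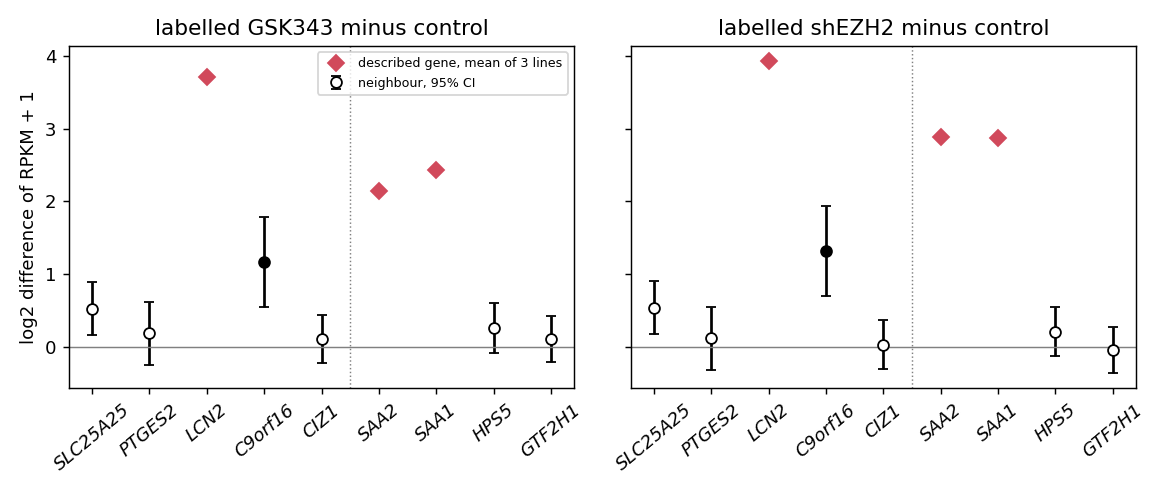
Mean difference of log2(RPKM + 1) from control (vertical axis) for LCN2, SAA1 and SAA2 (red diamonds, no interval because they were chosen by this contrast) and their tested neighbours (circles with 95% confidence intervals, filled where the limma adjusted p was under 0.05), in chromosome order within the LCN2 locus (left of the dotted line) and the serum amyloid cluster. C9orf16 is the only filled circle, at 1.16 under GSK343 and 1.32 under shEZH2.

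The genes whose pattern over the 9 libraries was most like that of LCN2 were found by Pearson correlation of log2(RPKM + 1) after the mean of each line was subtracted, which leaves the differences between conditions. The values are a description, since the libraries share their controls and lines and all tested genes were ranked. INPP5J (r = 0.998), a phosphoinositide phosphatase, GM2A (0.998), the lysosomal GM2 activator, CSAD (0.997), an enzyme of taurine synthesis, the pseudogene RPL13AP20 (0.996) and the secreted protein gene SRPX2 (0.994) came closest. GM2A averaged 23.8 ± 1.37 RPKM under GSK343, 24.2 ± 1.23 under shEZH2 and 12.9 ± 3.17 in the controls (SD, n = 3 each). INPP5J averaged 1.17 RPKM under GSK343, 1.23 under shEZH2 and 0.491 in the controls, and CSAD 1.18, 1.20 and 0.476. Both passed the filter on low values through targeted libraries only, so the filter fixed their direction and nothing is read from their likeness to LCN2. Among the set itself SAA1 had r = 0.981 with LCN2, SAA2 0.954, SLPI 0.754 and S100A9 0.258. Correlations within the set hold the contrast with control by which the 6 genes were chosen, so nothing is read from them. For SAA1 the closest were CTC-548K16.1 (0.998), SELPLG (0.996), the P-selectin ligand gene, EBI3 (0.995), a subunit of dimeric interleukins, ASIC3 (0.995), an acid-sensing channel, and SEZ6L2 (0.993). EBI3 averaged 17.1 ± 4.55 RPKM under GSK343, 18.2 ± 3.47 under shEZH2 and 6.27 ± 4.25 in the controls. With SAA1, SAA2 had r = 0.980, SLPI 0.747 and S100A9 0.302. Reads that match both SAA genes bear on the value for SAA2, and their part in it was not tested.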

How the data were processed

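The authors deposited RPKM for 58037 genes in the 9 libraries, in a single table (0 columns unused). STAR, HTSeq and GRCh38 are named per the submitters' processing notes. The sources used here do not give versions, annotation or strand setting, which leaves overlapping genes and pseudogenes uncertain. RPKM times exon length (GENCODE 29) gave whole reads within 0.05 of a read for 100% of low values. For SAA1, whose identifier version differs, the shortest length that gave whole reads was used. Floors of 3 reads cover counting error only.

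Genes with RPKM of at least 1 in at least 3 libraries (12965) were fitted on log2(RPKM + 1) with limma 3.58.1 (R 4.3.3, statmod 1.5.0, mean-variance trend), with treatment and cell line as terms and 4 residual degrees of freedom. P-values are two-sided and Benjamini-Hochberg adjusted over all tested genes (threshold 0.05). For differences between conditions they measure only the spread between lines. For differences between lines they measure only the spread between conditions, which serve as the replicates of a line. The ± of a log2 difference is the 95% confidence limit of the fit. Fold changes on this scale understate those of low genes. The fit was checked on simulated data. Tables were made with Python 3.11.15, pandas 2.3.3 and numpy 2.4.6.

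Lines pair the libraries, as the labels give them: deviations from group means correlated at 0.358 to 0.953 within lines and -0.914 to 0.090 between lines, across genes, which are not independent replicates. The 6 genes and the lists were chosen with earlier results of these data known. Named genes are the 6, EZH2, up to 3 tested genes per list and comparison with the smallest p, the nearest 2 protein-coding genes on each side of a locus and the 5 genes most like LCN2 and SAA1. Other genes were named after their values were seen. The summed level of a further marker list is not reported here. Alternatives were pseudocounts of 0.1 and 0.5, no filter, a mean RPKM of at least 5, median-ratio and equal-sum scaling, no trend, robust variances, a fit of 6 libraries, a fit with no replicate block, and omission of each library or line.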

Additional observations from a re-analysis of the deposited data

Results flagged for a closer look

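In 4 cases a difference ran in opposite directions in different lines, and the difference between lines was not tested, since each line has 1 library per condition. LCN2 was lower under the GSK343 label than under the shEZH2 label in MDA-MB-231 (log2 difference -0.365) and MDA-MB-436 (-0.485) and higher under the MDA-MB-453 label (0.216). SLPI ran the same way, at -0.399, -0.499 and 0.807. Under GSK343 against control, S100A8 was at 0.000, -0.560 and 0.256 in the 3 lines, on at most 11 reads per library. S100A9 was at 0.000, -0.564 and 0.256 in the same comparison, on at most 84 reads per library.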

How the results depend on the processing

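The differences of LCN2, SAA1, SAA2 and SLPI from control stayed above 0 under all 22 alternatives, from 3.38 to 4.25 and 3.56 to 4.39 for LCN2 under GSK343 and shEZH2. That of S100A9 changed sign under GSK343, from -0.282 to 0.197, highest without the MDA-MB-436 library of that label. Under shEZH2 it was 0.104 to 0.563. The number of genes called was 1018 under GSK343 and 1377 under shEZH2. Without a filter it was 14 and 15, and without the replicate block 2 and 2. Leaving out libraries or lines gave 43 to 1250 and 16 to 1621, lowest without the libraries labelled MDA-MB-453. Median-ratio rescaling turned 810 higher and 208 lower into 521 and 442 under GSK343, and 1082 and 295 into 805 and 620 under shEZH2. GSK343 against shEZH2 had 1 call at a mean RPKM of at least 5 and 0 to 3 with libraries left out. Between MDA-MB-453 and MDA-MB-436, 2 of the 6 genes were called without a filter and 2 without the treatment term, against 4. The cause was not tested. Signs turned only with libraries left out: over these settings the GSK343 minus shEZH2 difference was -0.437 to 0.123 for LCN2 and -0.449 to 0.204 for SLPI, and LCN2 was at -0.151 to 0.406 for MDA-MB-453 minus MDA-MB-231 and -0.749 to 0.049 for MDA-MB-453 minus MDA-MB-436. The single-gene tests between lines or between GSK343 and shEZH2 were counted with SLPI and S100A9 against MDA-MB-231 included. Under an alternative, 361 of these results kept direction and side of the threshold, 11 lost the call, 8 gained it and 11 changed sign. Of the list counts under an alternative, SAA4 and LRG1 included, 241 stayed within 1.5 times the reported count and 111 did not. The 3 to 10 reads of SLPI in MDA-MB-231 and the 0 to 21 reads of S100A8 limit what can be read from them.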
